A study of Mus musculus with 64 samples.

Results

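The genes described here are 8 chemokines whose transcripts were counted in cultured mouse natural killer (NK) cells: Xcl1, Ccl1, Ccl3, Ccl4, Ccl5, Ccl9, Cxcl9 and Cxcl10. They were taken by name from the table of raw counts, as 8 of its 36273 genes. All 8 were found, and all 8 passed the filter on low counts that left 10723 genes for testing. Together they held 2.235% of all counts in the 64 libraries.

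Bulk 3′ mRNA sequencing was done on NK cells from mouse spleen, grown for 5 days in a low dose of IL-2 and in IL15:IL15Ra, a complex of IL-15 with a chain of its receptor. Cells were WT (C57BL/6J), EP2KO (Ptger2-/- Ptger4 fl/fl, without the prostaglandin E2 receptor EP2 and with a floxed EP4 gene but no Cre) or EP2/EP4KO (GzmbCre Ptger2-/- Ptger4 fl/fl, in which Cre driven by Gzmb is to delete the EP4 gene, in cells that have expressed Gzmb). Each genotype was left untreated, given prostaglandin E2 (PGE2) at 100 ng/ml, or given medium (CM) conditioned by control BRAFV600E cells that produce PGE2, for 5 h. In the stimulated arm, 1 h of treatment came first and was followed by 4 h with antibody to NK1.1, an activating receptor of NK cells. All groups share the cytokine culture. This gave 18 groups with 4 libraries each in WT and EP2KO and 3 each in EP2/EP4KO, apart from the unstimulated PGE2 group of WT with 2 (replicates 2 and 4). Whether libraries of a group came from different mice or culture wells is not stated in the labels, so the spread that p-values are set against here may be technical.

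Library totals ran from 753973 to 1693750 counts. The transcripts of the targeted receptors gave a limited check of the genotypes, because the tags come from the 3′ end and the labels do not say which part of each gene is deleted. Ptger2 in untreated stimulated cells was 16.5 to 36.6 CPM (the usual depth-scaled count, relative to the TMM-adjusted library total) in WT and 5.44 to 13.9 CPM in EP2KO, without overlap. With PGE2 the stimulated groups overlapped (5.84 to 9.97 CPM in WT, 5.34 to 12.6 CPM in EP2KO) and EP2/EP4KO lay above WT (14.7 to 14.9 CPM), and unstimulated WT and EP2KO overlapped under each treatment. Ptger2 thus separated WT from EP2KO in some conditions only. Ptger4 in stimulated cells was not lower in EP2/EP4KO (63.2 to 125.1 CPM) than in EP2KO (23.0 to 68.3 CPM), and a tag that lies outside the deleted part checks nothing. Xist was at most 63.6 CPM in EP2/EP4KO against 478 to 940 CPM in the other genotypes, and 4 Y-linked genes summed to 211 to 390 CPM against 2.16 to 18.1 CPM. The sex of the cells and the deletion of EP4 therefore cannot be told apart in comparisons with EP2/EP4KO. NK cell markers were high in every library, with the summed level of 15 markers at 7594 to 16360 CPM, but their sum was not the same in all groups. The 15 markers include effector genes, so the sum need not measure NK cell content alone. Basophil and mast cell markers were also present (376 to 7505 CPM for 8 of 8 tested), and markers of macrophages and dendritic cells (9 of 18 tested, summed level of all 18 at 94.4 to 495 CPM) and neutrophils (5 of 10 tested, summed level of all 10 at up to 498 CPM) were detected. Markers of T cells summed to 468 to 880 CPM (9 of 14 tested), of B cells to 42.9 to 173 CPM (2 of 10), of platelets to 4.51 to 289 CPM (2 of 6) and of erythroid cells to at most 39.7 CPM (2 of 6). Markers of melanoma cells, which could come with CM, summed to at most 7.79 CPM, with 0 of 8 passing the filter.

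Chemokines are small secreted proteins that steer leukocytes by binding G-protein-coupled receptors. XCL1 attracts the cross-presenting dendritic cells that carry XCR1. CCL3, CCL5 and CCL9 bind CCR1, CCL1 binds CCR8, and CCL4 attracts T cells and monocytes. CXCL9 and CXCL10 bind CXCR3 on T cells and NK cells and are classical products of cells exposed to interferon-gamma. Activated NK cells release several of these proteins within hours of receptor engagement. PGE2 acts on EP2 and EP4, which both raise cyclic AMP.

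The genes lie in 3 places of the mouse genome (GRCm38 positions from GENCODE M21). The 5 CC chemokine genes are on chromosome 11: Ccl1 at chr11:82176657-82305690, Ccl5 at chr11:83525778-83530518, Ccl9 at chr11:83572919-83578636 and Ccl3 at chr11:83647844-83649355 on the minus strand, and Ccl4 at chr11:83662584-83664683 on the plus strand. The annotated span of Ccl1 includes a start far upstream of the RefSeq start used below. Cxcl9 (chr5:92321347-92328079) and Cxcl10 (chr5:92346638-92348889) are neighbours on the minus strand of chromosome 5. Xcl1 is at chr1:164931644-164935527 on the minus strand. Exons of Xcl1 overlap those of the opposite-strand transcript Gm20743, and exons of Cxcl10 overlap those of the opposite-strand gene Art3. Whether the counting used strand is not given in the sources used here, so counts of these overlapping pairs may be shared.

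The 250 bases before the RefSeq start were read for the 6 members that have an entry in the RefSeq promoter table of GRCm38.p6 (all but Ccl4 and Ccl5). The promoters of Xcl1, Ccl1, Ccl3 and Ccl9 are shown because these genes rose with stimulation and fell with PGE2 in stimulated WT cells, and those of Cxcl9 and Cxcl10 because these genes were not called with PGE2. All are on the minus strand of the chromosome and are printed 5′ to 3′ in the direction of the gene, ending just before its start. Capitals mark matches, on either strand, to the letters GGGANNTTC (NF-kB), GGAAAA (core of NFAT sites) and TGANTCA (AP-1).
Xcl1 chr1:164935523-164935772: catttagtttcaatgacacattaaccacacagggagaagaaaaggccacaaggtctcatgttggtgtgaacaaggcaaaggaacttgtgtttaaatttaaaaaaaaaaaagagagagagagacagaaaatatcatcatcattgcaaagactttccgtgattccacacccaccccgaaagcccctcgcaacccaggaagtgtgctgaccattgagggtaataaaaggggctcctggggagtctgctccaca
Ccl1 chr11:82179813-82180062: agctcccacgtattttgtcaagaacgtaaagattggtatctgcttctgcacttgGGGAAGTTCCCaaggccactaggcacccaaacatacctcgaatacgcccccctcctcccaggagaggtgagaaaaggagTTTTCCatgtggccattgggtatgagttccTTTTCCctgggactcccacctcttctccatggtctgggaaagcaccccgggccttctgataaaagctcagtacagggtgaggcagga
Ccl3 chr11:83649379-83649628: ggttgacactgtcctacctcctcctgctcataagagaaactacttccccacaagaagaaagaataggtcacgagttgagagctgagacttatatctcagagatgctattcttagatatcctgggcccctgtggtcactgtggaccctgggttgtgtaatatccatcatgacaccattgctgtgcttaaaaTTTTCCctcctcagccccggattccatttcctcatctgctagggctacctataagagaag
Ccl9 chr11:83578637-83578886: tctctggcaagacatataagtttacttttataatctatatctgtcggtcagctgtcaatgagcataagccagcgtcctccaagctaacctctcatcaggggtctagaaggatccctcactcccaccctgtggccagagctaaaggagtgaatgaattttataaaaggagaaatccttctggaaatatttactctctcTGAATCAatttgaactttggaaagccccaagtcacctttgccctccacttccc
Cxcl9 chr5:92328080-92328329: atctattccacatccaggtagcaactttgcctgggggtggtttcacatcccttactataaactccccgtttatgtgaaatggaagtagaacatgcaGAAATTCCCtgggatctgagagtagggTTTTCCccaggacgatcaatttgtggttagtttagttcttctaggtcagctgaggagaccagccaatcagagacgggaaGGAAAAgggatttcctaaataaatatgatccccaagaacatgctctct
Cxcl10 chr5:92348890-92349139: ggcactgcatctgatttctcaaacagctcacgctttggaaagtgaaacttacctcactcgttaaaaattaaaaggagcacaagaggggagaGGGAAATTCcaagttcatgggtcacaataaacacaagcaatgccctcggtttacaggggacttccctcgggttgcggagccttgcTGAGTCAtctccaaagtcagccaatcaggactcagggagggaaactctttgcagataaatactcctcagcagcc

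The Ccl1 promoter held the NF-kB letters on both strands in 1 overlapping stretch (bases -196 to -188 on the plus strand of the gene and -194 to -186 on the other) and the NFAT core at -117 to -112 and -87 to -82. That of Ccl3 held the NFAT core at -60 to -55, and that of Ccl9 the AP-1 letters at -53 to -47. Cxcl9 had the NF-kB letters at -154 to -146 and the NFAT core at -127 to -122 and -48 to -43. Cxcl10 had the NF-kB letters at -159 to -151 and the AP-1 letters at -74 to -68. Xcl1 held none of the letters searched. Of the 32851 promoter windows of the same length in the table, 3.2% held the NF-kB letters, 20.4% the NFAT core and 6.7% the AP-1 letters. The letters TGACGTCA of a cyclic AMP response element (1.5% of windows), its core TGACG (17.8%) and the interferon-gamma element TTCNNNGAA (7.0%) were in none of the 6 windows. A match in these letters is a description of the sequence and not a measured binding site.

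NK1.1 engagement raised 7 of the 8 chemokines in untreated WT cells, where 42% of all tested genes were called (adjusted p under 0.05, edgeR quasi-likelihood test). Over the 8 members the median log2 fold change was 2.56, against 0.01 over all tested genes. The 8 members went from a median of 1.06% of all counts in unstimulated untreated WT libraries to 3.96% in stimulated ones. Ccl5 was the member that was not called.

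Xcl1, the XCR1 ligand, was 2679, 3012, 2811 and 2495 CPM in the unstimulated untreated WT libraries and 11950.3, 10107, 16382 and 19468 CPM in the stimulated ones (replicates 1 to 4). The groups did not overlap, and replicates 3 and 4 were the highest of the stimulated libraries. The log2 fold change was 2.40 ± 0.17 (SE), with an adjusted p of 3.8e-18. Ccl3, a CCR1 ligand, went from 1173, 1196, 1109 and 1017 CPM to 5206, 3766, 9189.5 and 11494 CPM, a log2 fold change of 2.72 ± 0.25. Ccl4, which is encoded beside Ccl3, went from 2313, 2435, 2228 and 1999.6 CPM to 8559, 7545, 15053 and 16484 CPM, a log2 fold change of 2.41 ± 0.20. For both genes the lowest stimulated library was replicate 2 and still lay above every unstimulated one. The summed NK cell markers of the same 4 stimulated libraries were 10533, 8314, 13898 and 15849 CPM, in the same order of replicates as Xcl1, Ccl3 and Ccl4, and their part in the spread was not tested.

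Ccl1, the CCR8 ligand, was 928, 955.5, 914 and 679 CPM unstimulated and 4485, 3608, 8239 and 8665 CPM stimulated in untreated WT cells. Replicates 1 and 2 were again below replicates 3 and 4 after stimulation, and all 4 were above the unstimulated libraries. The log2 fold change was 2.85 ± 0.21 (adjusted p = 5.7e-18). Ccl9, a CCR1 ligand, was 65.4, 78.2, 65.7 and 49.8 CPM unstimulated and 539, 407, 729 and 835 CPM stimulated. Its log2 fold change of 3.27 ± 0.21 was above those of Xcl1, Ccl1, Ccl3 and Ccl4, though these differences between genes were not tested.

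The same 5 genes rose with stimulation in untreated EP2KO and EP2/EP4KO cells. In EP2KO cells 7 members were called, all higher, beside 33.3% of all genes, and in EP2/EP4KO cells 5 were called, all higher, beside 30.2%. Ccl1 rose by a log2 fold change of 2.87 ± 0.21 in EP2KO and 3.15 ± 0.24 in EP2/EP4KO. Xcl1 rose by 2.35 ± 0.17 and 2.61 ± 0.20, and Ccl3 by 2.57 ± 0.25 and 2.86 ± 0.29. Ccl4 rose by 2.40 ± 0.20 and 2.44 ± 0.23, and Ccl9 by 2.62 ± 0.21 and 2.98 ± 0.24. The test of the difference in the stimulation effect between genotypes called 0 members for EP2KO minus WT and 0 for EP2/EP4KO minus EP2KO, and 0% of all genes in both. At an unadjusted p under 0.05 there was 1 member in the first (Ccl9, difference -0.65 ± 0.29) and 0 in the second. Of the 10723 tested genes, 460 and 227 were at that threshold. DESeq2 called 0 members in both. Untreated levels also gave 0 called members between EP2KO and WT (0.0653% of all genes unstimulated, 0.0746% stimulated) and between EP2/EP4KO and EP2KO (0.056% and 0.0839%), with 0 also called by DESeq2. The members at an unadjusted p under 0.05 were 2 in each stimulated comparison and 0 in each unstimulated one. They were Cxcl9 and Cxcl10, at log2 differences of 1.45 and 1.66 for EP2KO minus WT and -2.07 and -2.21 for EP2/EP4KO minus EP2KO. Of all genes, 658 and 528 were at that threshold in the stimulated comparisons and 774 and 568 in the unstimulated ones.

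**Figure D1:**
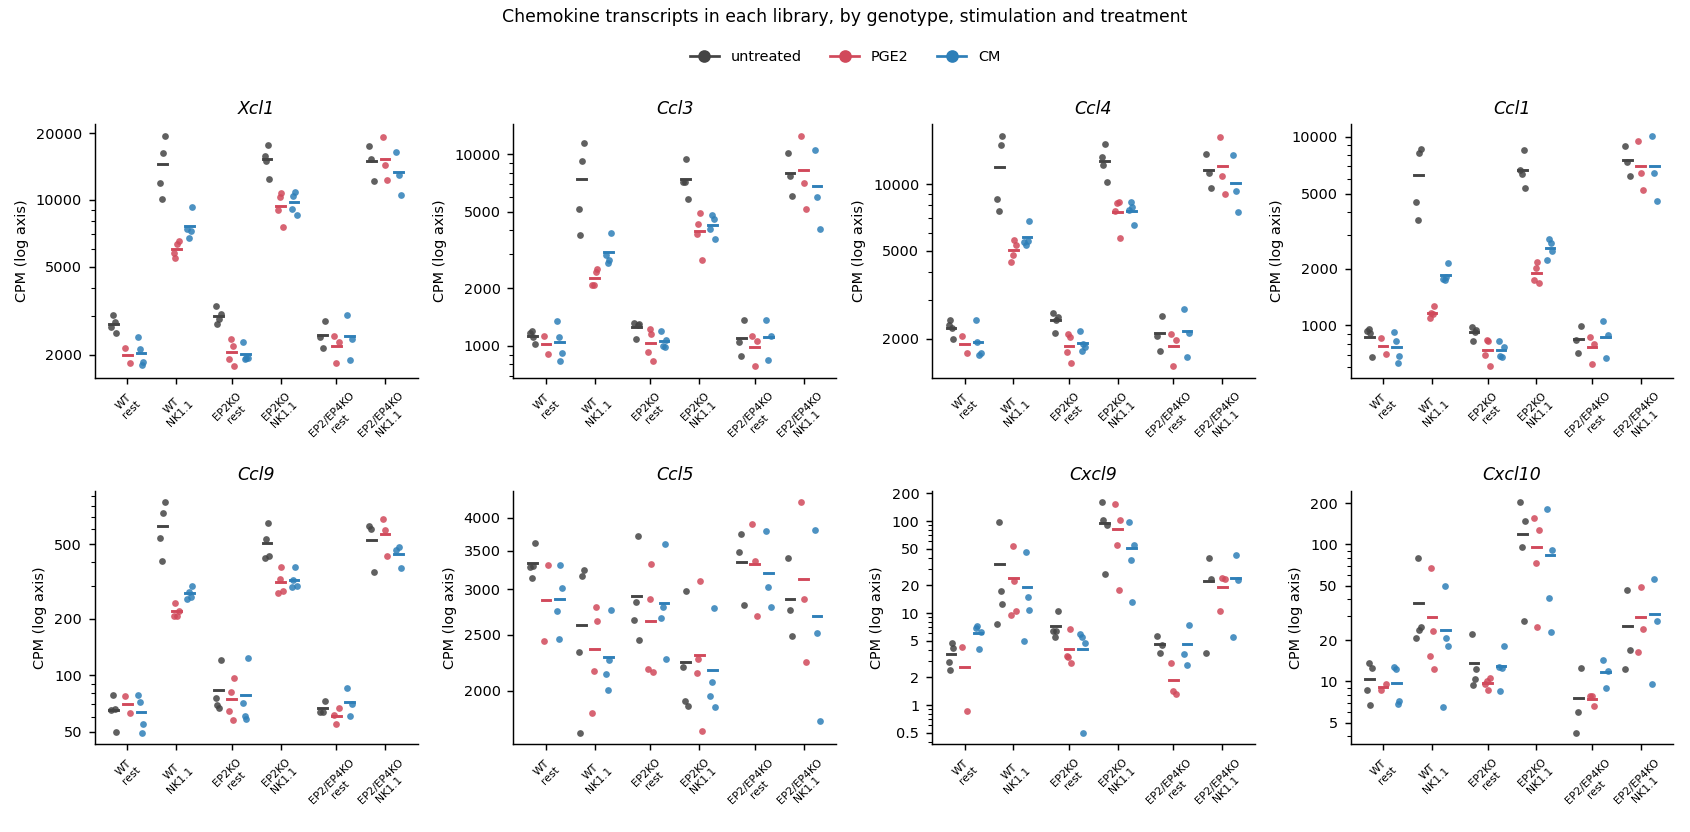
CPM of each chemokine transcript in each of the 64 libraries (points, log axis) with the group mean (bar), by genotype and state (rest, unstimulated; NK1.1, stimulated) and coloured by treatment. A library at 0 CPM (Cxcl9 in 1 EP2KO library with CM) is drawn at the foot of its panel. In Xcl1, Ccl3, Ccl4, Ccl1 and Ccl9 the stimulated points lie above the unstimulated ones in each genotype, PGE2 and CM points lie below the untreated ones in stimulated WT and EP2KO (except 1 CM library for Ccl3 in WT), and the 3 treatments overlap in EP2/EP4KO.

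PGE2 lowered 5 of the 8 chemokines in stimulated WT cells: Ccl1, Ccl3, Ccl9, Xcl1 and Ccl4. Of all tested genes, 15.6% were called in this comparison. The median log2 fold change was -1.26 over the 8 members and -0.05 over all genes. Ccl5, Cxcl9 and Cxcl10 were not called. In bulk libraries, fewer cells of a type and less RNA per cell cannot be told apart.

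Ccl1 had the largest fall of the 8. With PGE2 it was 1095, 1156, 1145 and 1262 CPM in the 4 stimulated WT libraries, below each of the untreated stimulated libraries listed above and narrow in spread. The log2 fold change was -2.42 ± 0.21 (adjusted p = 1.0e-14). Ccl3 with PGE2 was 2067, 2073, 2433 and 2514 CPM, a log2 fold change of -1.71 ± 0.24 (adjusted p = 2.6e-07). Ccl9 was 207, 243, 207 and 219 CPM, a log2 fold change of -1.51 ± 0.19 (adjusted p = 7.9e-09). For both, the 4 libraries with PGE2 lay below the 4 without.

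Xcl1 with PGE2 was 5753, 5441, 6350.3 and 6497 CPM in stimulated WT cells, and its log2 fold change was -1.27 ± 0.17 (adjusted p = 2.2e-08). Ccl4 was 4438, 4784, 5609 and 5276 CPM, with a log2 fold change of -1.24 ± 0.19 (adjusted p = 8.9e-07). Neither gene overlapped its untreated stimulated libraries. The fall did not bring these genes back to their unstimulated levels. Under PGE2, stimulated WT cells still exceeded unstimulated WT cells for Xcl1 (log2 1.59 ± 0.22), Ccl9 (1.64 ± 0.27), Ccl4 (1.41 ± 0.25) and Ccl3 (1.16 ± 0.31), so edgeR called 4 members, beside 8.25% of all genes. DESeq2 also called Cxcl9 (3.23, adjusted p = 0.024). Ccl1 was not called in that comparison, at 0.58 ± 0.25 (95% interval 0.08 to 1.07, adjusted p = 0.15). Its 4 stimulated libraries with PGE2 lay above the 859.9 and 701 CPM of the 2 unstimulated ones. The Ccl3 call rested on both of those: without replicate 2 of the unstimulated PGE2 group it was 1.33, adjusted p = 0.054, and without replicate 4 it was 1.03, adjusted p = 0.2.

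In unstimulated WT cells PGE2 changed none of the 8 by edgeR or DESeq2, with 2.97% of all genes called and 1483 at an unadjusted p under 0.05. Xcl1 alone had an unadjusted p under 0.05, at 2149 and 1841 CPM with PGE2, below the 4 untreated libraries, and a log2 fold change of -0.46 ± 0.21 (adjusted p = 0.28). The summed NK cell markers were also lower in these libraries, at 8575 and 10774 CPM with PGE2 against 13411, 12263, 12403 and 14134 CPM untreated, and their part was not tested. The PGE2 effect differed between stimulated and unstimulated WT cells for 3 members, beside 1.31% of all genes: Ccl1 (-2.27 ± 0.31, adjusted p = 4.2e-06), Ccl9 (-1.63 ± 0.33, 0.0021) and Ccl3 (-1.56 ± 0.37, 0.014). For Ccl4 the difference was -0.996 ± 0.30 (adjusted p = 0.076) and for Xcl1 -0.81 ± 0.26 (0.12) by edgeR. DESeq2 called Ccl4 (-0.97, adjusted p = 0.038), and edgeR with no filter on low counts called Xcl1 (-0.79, adjusted p = 0.026). Leaving out replicate 2 of the unstimulated PGE2 group gave -1.47, adjusted p = 0.099 for Ccl9 and -1.40, adjusted p = 0.22 for Ccl3. With no filter on low counts the Ccl3 difference was -1.55, adjusted p = 0.1. Leaving out replicate 4 of the untreated stimulated group gave -1.20, adjusted p = 0.09 for Ccl3. Ccl4 was called without replicate 1 of that group (-1.05, adjusted p = 0.047) or replicate 2 (-1.09, adjusted p = 0.028).

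In stimulated EP2KO cells, which keep EP4, PGE2 lowered the same 5 chemokines, with 7.29% of all genes called. Ccl1 went from 6711, 6314, 8487 and 5322 CPM to 1741, 2004, 2175 and 1686 CPM, without overlap, at a log2 fold change of -1.82 ± 0.20 (adjusted p = 3.2e-10). Ccl3 went from 7159.7, 7199, 9434 and 5835 CPM to 3819, 4337, 4951 and 2800.3 CPM, at -0.90 ± 0.24 (0.01). Replicate 4 was the lowest in both groups. Ccl4 changed by -0.78 ± 0.19 (0.0041), Ccl9 by -0.70 ± 0.19 (0.011) and Xcl1 by -0.70 ± 0.17 (0.003). The calls of Ccl3 and Ccl9 were lost without untreated stimulated replicate 3 (-0.74, adjusted p = 0.081 and -0.54, adjusted p = 0.11). That of Ccl9 was also lost without PGE2 stimulated replicate 1 (-0.60, adjusted p = 0.06), and that of Ccl3 without PGE2 stimulated replicate 4 (-0.76, adjusted p = 0.066).

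Stimulation under PGE2 still raised 7 members in EP2KO cells (23.5% of all genes called), among them Ccl1 by a log2 fold change of 1.36 ± 0.20. Without stimulation, PGE2 changed 0 members in EP2KO by the main edgeR fit (3.15% of all genes called, 1322 at an unadjusted p under 0.05). Xcl1 was the single member at an unadjusted p under 0.05 and was at -0.55 ± 0.17 (adjusted p = 0.053). DESeq2 called Xcl1, at -0.57, adjusted p = 0.01. It was also called by edgeR with other scalings or filters, without the robust option, on EP2KO libraries alone, or with replicate number as a block. In these edgeR fits the adjusted p was 0.0026 to 0.042. Its libraries were 3307, 2746, 2890.3 and 3046 CPM untreated and 1908, 2351, 2183 and 1770.0 CPM with PGE2, without overlap. The summed NK cell markers overlapped there (10104, 11593, 13801 and 9852 CPM untreated, 8289, 11065, 11339 and 8747 CPM with PGE2). The PGE2 effect differed between the states of EP2KO cells for Ccl1 alone among the 8 (-1.51 ± 0.28, adjusted p = 0.0017, 0.326% of all genes called).

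In EP2/EP4KO cells PGE2 changed 0 of the 8 chemokines and 0% of all genes, stimulated or not, by edgeR or DESeq2, and 0 of the 8 had an unadjusted p under 0.05 in either state. Among all genes, 260 were at an unadjusted p under 0.05 in stimulated and 184 in unstimulated EP2/EP4KO cells. Ccl1 in stimulated EP2/EP4KO cells was 8964, 7312 and 6222 CPM untreated and 9473, 6429 and 5234 CPM with PGE2 (replicates 1 to 3). The groups overlapped, replicate 1 was the highest in both, and the log2 fold change was -0.09 ± 0.22, with a 95% interval of -0.54 to 0.36. The intervals of the others among the 5 that fell in WT were -0.50 to 0.60 for Ccl3, -0.32 to 0.53 for Ccl9, -0.37 to 0.50 for Ccl4 and -0.35 to 0.41 for Xcl1. Stimulation under PGE2 raised 6 members in these cells (31.5% of all genes called), Ccl1 by 3.20 ± 0.25 and Xcl1 by 2.81 ± 0.20. The test of the PGE2 effect between the states called 0 of the 8 and 0.00933% of all genes, with 0 of the 8 at an unadjusted p under 0.05 and 0 called by DESeq2.

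**Figure D2:**
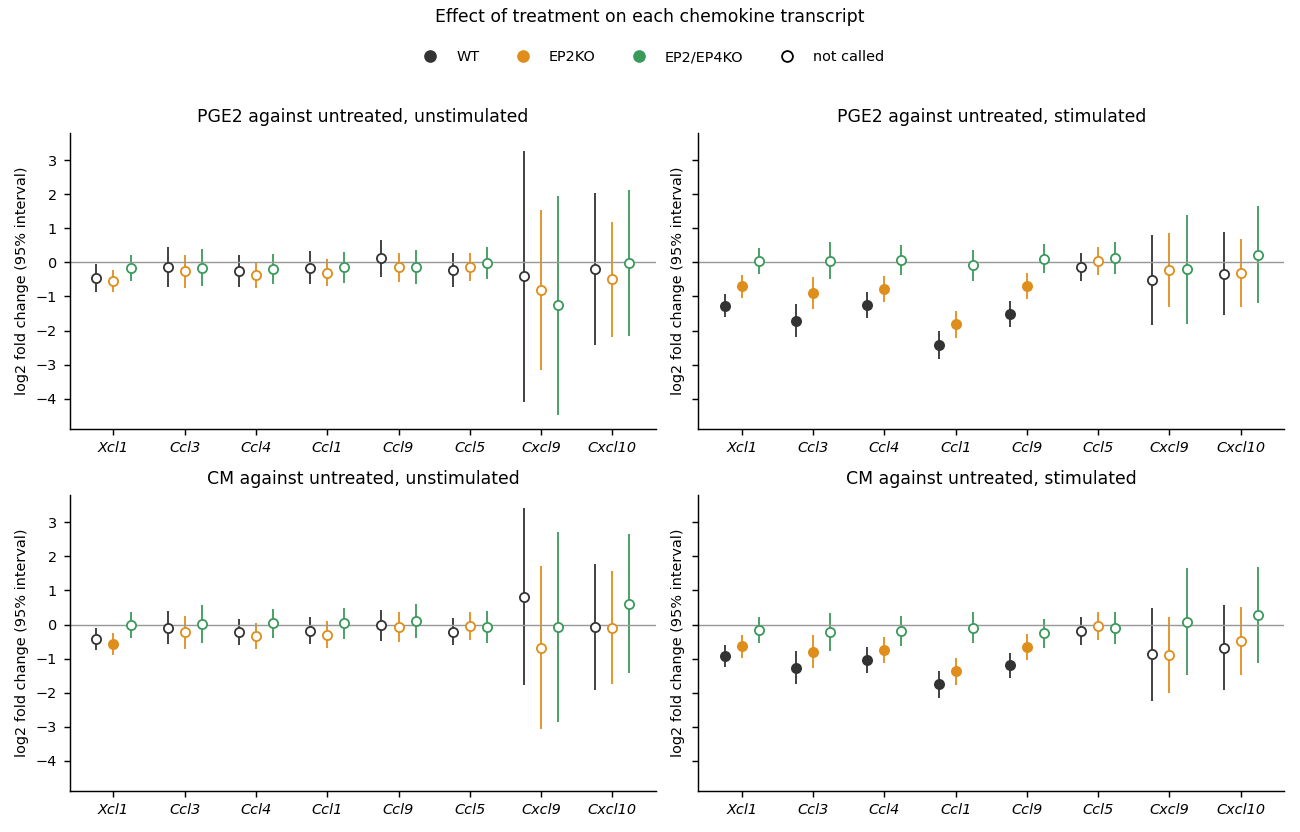
Log2 fold change of each chemokine with PGE2 (top) or CM (bottom) against untreated cells of the same genotype, unstimulated (left) or stimulated (right), with the 95% interval of the fit as lines. Filled points were called at an adjusted p under 0.05. In stimulated cells the filled points are the 5 genes Xcl1, Ccl3, Ccl4, Ccl1 and Ccl9 in WT and EP2KO, and none in EP2/EP4KO, whose intervals span 0. In unstimulated cells the 1 filled point is Xcl1 in EP2KO with CM.

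The difference of the PGE2 effect between genotypes was tested directly in stimulated cells. Between EP2/EP4KO and WT it was called for 5 members (4.27% of all genes called): Ccl1 (2.33 ± 0.30, adjusted p = 1.3e-07), Ccl3 (1.76 ± 0.37, 0.0013), Ccl9 (1.62 ± 0.29, 7.7e-05), Ccl4 (1.31 ± 0.29, 0.0023) and Xcl1 (1.30 ± 0.25, 4.1e-04). These 5 calls held when any 1 library of the groups compared was left out. Between EP2/EP4KO and EP2KO it was called for Ccl1 alone among the 8 (1.73 ± 0.30, adjusted p = 2.5e-04, 0.951% of all genes called). Between EP2KO and WT, 0 members and 0% of all genes were called by edgeR, and DESeq2 called 0 members. The falls in WT were larger than those in EP2KO at an unadjusted p under 0.05 for 4 members. Of the 10723 tested genes, 465 differed at that threshold. The differences were 0.82 ± 0.27 for Ccl9, 0.81 ± 0.34 for Ccl3, 0.60 ± 0.28 for Ccl1 and 0.57 ± 0.23 for Xcl1. The 95% interval for Ccl1 was 0.05 to 1.16, so a smaller effect in EP2KO was neither called nor shown to be absent.

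CM lowered the same 5 chemokines in stimulated WT cells, with 15.4% of all genes called. Ccl1 was 1760.0, 1737, 1804 and 2130.2 CPM with CM, all below the untreated stimulated libraries, at a log2 fold change of -1.75 ± 0.20 (adjusted p = 4.3e-10). Ccl3 was 2986, 2720.2, 2791 and 3866 CPM, and here replicate 4 with CM lay above replicate 2 of the untreated libraries. Its log2 fold change was -1.26 ± 0.24 (adjusted p = 8.8e-05). Ccl9 changed by -1.20 ± 0.19, Ccl4 by -1.05 ± 0.19 and Xcl1 by -0.92 ± 0.17. PGE2 and CM are each compared with the same untreated libraries.

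Under CM, stimulation raised 5 members in WT (16.9% of all genes called), including Ccl1 by 1.28 ± 0.20. In unstimulated WT cells CM changed 0 members by the main edgeR fit or DESeq2 (8.23% of all genes called, 2456 at an unadjusted p under 0.05). Xcl1 alone of the 8 had an unadjusted p under 0.05, at -0.43 ± 0.17 (adjusted p = 0.098). It was called by edgeR with library totals alone (adjusted p = 0.031), no filter on low counts (0.021) or replicate number as a block (0.023). The summed NK cell markers were 10072, 8358, 10143 and 9807 CPM with CM, below the 4 untreated libraries, and their part was not tested. The CM effect differed between the states in WT for 3 members (2.19% of all genes called): Ccl1 (-1.57 ± 0.28, adjusted p = 3.3e-04), Ccl9 (-1.18 ± 0.30, 0.019) and Ccl3 (-1.17 ± 0.34, 0.0497). The Ccl3 call was lost without any of 12 libraries of the 4 groups (log2 -1.23 to -0.81, adjusted p 0.0529 to 0.146). The Ccl9 call was lost without any of 6: replicates 1 and 4 of the untreated unstimulated group, replicates 1 and 2 with CM unstimulated, replicate 4 untreated stimulated and replicate 1 with CM stimulated (-1.12 to -0.94, adjusted p 0.0531 to 0.0694). DESeq2 also called Ccl4 (-0.83, adjusted p = 0.033), as did edgeR without untreated stimulated replicate 2 (-0.94, adjusted p = 0.039).

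In stimulated EP2KO cells CM lowered Ccl1 (-1.38 ± 0.20), Ccl3 (-0.79 ± 0.24), Ccl4 (-0.75 ± 0.19), Ccl9 (-0.66 ± 0.19) and Xcl1 (-0.64 ± 0.17), with 10.4% of all genes called. Ccl1 with CM was 2229, 2884, 2742 and 2478 CPM, all below its untreated stimulated libraries. The calls of Ccl3 and Ccl9 were lost without untreated stimulated replicate 2 or 3 or CM stimulated replicate 1 or 4 (Ccl3 -0.77 to -0.63, adjusted p 0.0504 to 0.128; Ccl9 -0.60 to -0.49, adjusted p 0.0523 to 0.125). With no filter on low counts, the Ccl3 call in EP2KO was lost for PGE2 (-0.89, adjusted p = 0.073) and for CM (-0.78, adjusted p = 0.13). Stimulation under CM raised 7 members (23.1% of all genes called). In unstimulated EP2KO cells, Xcl1 fell with CM (2275, 1914, 1935 and 1922 CPM, log2 -0.58 ± 0.17, adjusted p = 0.03) and was the 1 member called beside 4.37% of all genes. This call was lost without any of 5 libraries (untreated replicates 1 and 4 and CM replicates 2, 3 and 4; adjusted p 0.0607 to 0.0908). The CM effect differed between the states in EP2KO for Ccl1 alone among the 8, beside 0.634% of all genes (-1.07 ± 0.28, adjusted p = 0.049), and that call was lost without any of 15 of the 16 libraries involved, all but untreated stimulated replicate 4 (-1.11 to -0.89, adjusted p 0.0609 to 0.179).

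In EP2/EP4KO cells CM changed 0 members unstimulated (0% of all genes called) and 0 stimulated (0.0746%), with 0 members at an unadjusted p under 0.05 and 0 called by DESeq2 in either state. Ccl1 in stimulated EP2/EP4KO cells with CM was 10109, 6423 and 4578 CPM, overlapping the untreated libraries, at -0.09 ± 0.22 (95% interval -0.54 to 0.36). Stimulation under CM raised 5 members (25.1% of all genes called), and the CM effect did not differ between the states by the test for any of the 8 or for any gene (0%), with 0 members at an unadjusted p under 0.05 and 0 called by DESeq2. Between genotypes, the CM effect in stimulated cells differed for Ccl1 between EP2/EP4KO and WT (1.66 ± 0.30, adjusted p = 3.8e-04, 1.21% of all genes called) and between EP2/EP4KO and EP2KO (1.28 ± 0.30, 0.026, 0.345%). The second call was lost without any of 7 libraries, which were EP2KO untreated replicates 1 and 3, EP2KO CM replicates 1 and 3, EP2/EP4KO untreated replicates 2 and 3 and EP2/EP4KO CM replicate 1 (0.91 to 1.29, adjusted p 0.0538 to 0.146). Without WT untreated stimulated replicate 2, Ccl3, Ccl4, Ccl9 and Xcl1 were also called between EP2/EP4KO and WT (0.88 to 1.25), and DESeq2 called Ccl9 and Xcl1 beside Ccl1. Between EP2KO and WT the CM effect differed for 0 members and 0% of all genes, with 0 members called by DESeq2. Ccl9 alone of the 8 was at an unadjusted p under 0.05 (0.54 ± 0.26), beside 266 of all genes.

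CM and PGE2 were also compared directly. Of the 8 members, 0 were called in any of the 6 comparisons by edgeR or DESeq2. Of all genes, 0.00933% were called in stimulated WT and in stimulated EP2KO and 0% in the other 4. The members at an unadjusted p under 0.05 were Ccl1 (0.67 ± 0.20, adjusted p = 0.48) and Xcl1 (0.35 ± 0.17) in stimulated WT and Ccl1 (0.44 ± 0.20) in stimulated EP2KO. Of all genes, 491 and 441 were at that threshold in these comparisons. The Ccl1 libraries with CM lay above those with PGE2 without overlap in both genotypes. The 95% interval for Ccl1 in WT was 0.28 to 1.07, which does not show that the 2 treatments act alike. The concentration of PGE2 in CM is not given in the labels.

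**Figure D3:**
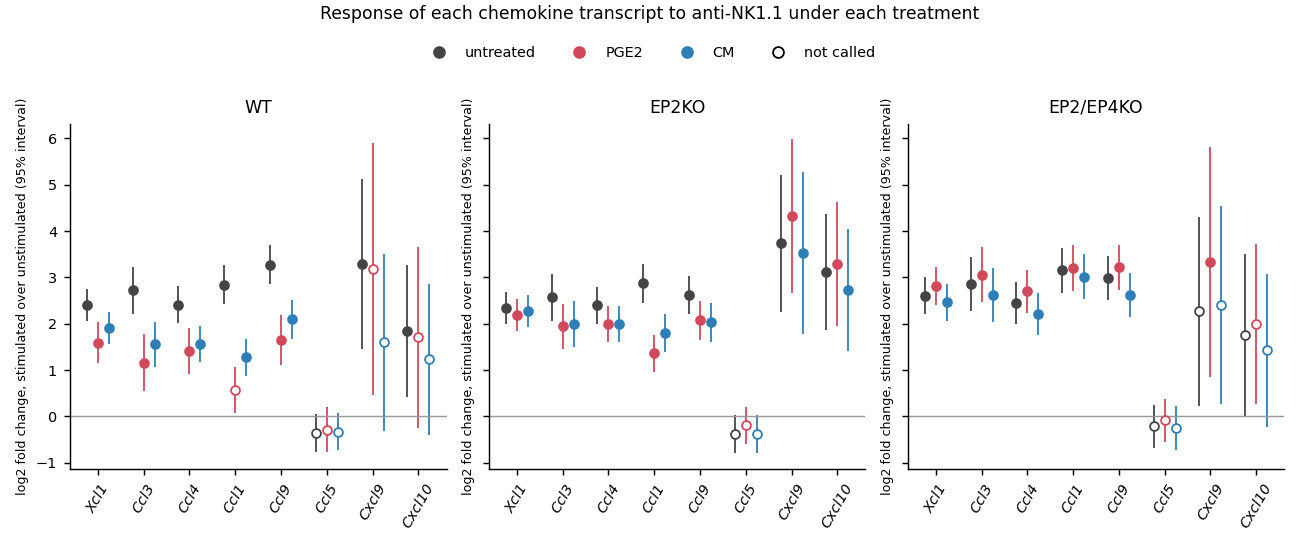
Log2 fold change of each chemokine with NK1.1 antibody against unstimulated cells under each treatment, by genotype, with the 95% interval as lines and filled points for genes called at an adjusted p under 0.05. Under PGE2 the Ccl1 response is 0.58 in WT, 1.36 in EP2KO and 3.20 in EP2/EP4KO, against 2.85, 2.87 and 3.15 without treatment.

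Across all 18 groups, Ccl1 means ran from 739 CPM in unstimulated EP2KO cells with PGE2 to 7499 CPM in untreated stimulated EP2/EP4KO cells. The order of the stimulated groups was untreated, PGE2 and CM EP2/EP4KO cells (7499, 7045 and 7037 CPM), untreated EP2KO and WT (6709 and 6249), CM EP2KO (2583), PGE2 EP2KO (1901), CM WT (1858) and PGE2 WT (1165). The first 5 of these groups overlapped one another, while the WT groups with PGE2 and with CM did not overlap each other. Of these, only the steps between treatments within a genotype and between untreated genotypes were tested.

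Ccl5, a CCR1 and CCR3 ligand that resting NK cells already express, was called by edgeR, with 1 mean per group and TMM scaling, in none of the comparisons. It was 3278, 3142, 3300.3 and 3611 CPM in untreated unstimulated WT cells and 2331, 1691, 3160.1 and 3239.7 CPM after stimulation. The groups overlapped in part, with replicates 1 and 2 low after stimulation, and the log2 fold change was -0.36 ± 0.20 (adjusted p = 0.15). In EP2KO it was -0.38 ± 0.20 (0.15). Both crossed the threshold as falls when 1 library was left out, WT without untreated stimulated replicate 4 (-0.52, adjusted p = 0.045) and EP2KO without untreated stimulated replicate 3 (-0.59, adjusted p = 0.031). With library totals alone in place of TMM, both were called as falls (-0.50, adjusted p = 0.016 in WT and -0.54, adjusted p = 0.011 in EP2KO). With replicate number as a block, edgeR also called both as falls (-0.39, adjusted p = 7.3e-04 in WT and -0.38, adjusted p = 0.0013 in EP2KO). That fit called falls with stimulation under CM in each genotype as well. With PGE2 in stimulated WT cells Ccl5 was 1831, 2167, 2793 and 2648 CPM, a log2 fold change of -0.14 ± 0.20 (95% interval -0.55 to 0.26). Over all 64 libraries it stayed between 1691 and 4251 CPM.

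Cxcl9 and Cxcl10, the CXCR3 ligands, were low at rest and varied by replicate number. Cxcl9 in untreated WT cells was 2.91, 2.39, 4.76 and 4.15 CPM unstimulated and 7.62, 98.5, 17.4 and 12.5 CPM stimulated. Replicate 2 stood above the others after stimulation, also with PGE2 (9.43, 54.0, 22.4 and 10.5 CPM) and with CM (5.02, 45.5, 15.1 and 10.8 CPM). The log2 fold change with stimulation was 3.28 ± 0.91 (adjusted p = 0.0032). Without replicate 2 of the untreated stimulated group it was 1.74, adjusted p = 0.19, which is not called. Cxcl10 went from 8.72, 13.6, 6.67 and 12.5 CPM to 20.6, 79.1, 23.8 and 24.9 CPM, with the same library the highest, at 1.84 ± 0.71 (adjusted p = 0.032). Its call was also lost without that library (1.09, adjusted p = 0.29) and without untreated unstimulated replicate 1, 3 or 4 (adjusted p 0.0518 to 0.0826), and with no filter on low counts (1.83, adjusted p = 0.1).

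In untreated EP2KO cells both genes were called as higher after stimulation. Cxcl9 went from 6.36, 5.48, 6.42 and 10.5 CPM to 159.7, 102, 26.9 and 90.1 CPM (3.74 ± 0.74, adjusted p = 6.5e-05), and Cxcl10 from 22.2, 9.39, 10.4 and 12.4 CPM to 203, 95.6, 27.7 and 148 CPM (3.12 ± 0.62, 7.4e-05). For both, replicate 1 was the highest and replicate 3 the lowest. In untreated EP2/EP4KO cells Cxcl9 was 3.65, 39.4 and 23.4 CPM after stimulation, with replicate 1 below all of the unstimulated libraries (5.63, 3.71 and 4.45 CPM), and edgeR called neither gene (Cxcl9 2.27 ± 1.01, adjusted p = 0.084; Cxcl10 1.76 ± 0.87, 0.12). DESeq2 called Cxcl9 (2.27, adjusted p = 0.037), and the fit on EP2/EP4KO libraries alone called both Cxcl9 (2.26, adjusted p = 0.016) and Cxcl10 (1.75, adjusted p = 0.031). Without stimulated replicate 1, edgeR also called Cxcl9 (2.71, adjusted p = 0.042). Under PGE2 in EP2/EP4KO, stimulation called Cxcl9 at 3.32 ± 1.23. That call was lost without any of 5 of the 6 libraries, all but stimulated replicate 1 (adjusted p 0.0688 to 0.0985). Cxcl10 was not called there by the main fit. It was called by DESeq2 (1.99, adjusted p = 0.026), a non-robust fit (adjusted p = 0.042) and the fit on EP2/EP4KO libraries alone (0.014). Under CM in EP2/EP4KO, stimulation called Cxcl9 by DESeq2 (2.395, adjusted p = 0.033) and by the fit on those libraries alone (0.017). For PGE2 or CM against untreated cells, neither edgeR, with 1 mean per group, nor DESeq2 called either gene in any genotype or state. The 95% interval for Cxcl9 with PGE2 in stimulated WT (-1.84 to 0.81) includes both 0 and the fall measured for Ccl3.

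In stimulated cells, the replicate number highest in Cxcl9 and Cxcl10 in each genotype also had the highest neutrophil markers. In stimulated WT libraries, summed neutrophil markers were 109 to 187 CPM in the 3 libraries of replicate 2 against at most 38.0 CPM in replicates 1, 3 and 4, and summed markers of macrophages and dendritic cells were 181 to 203 CPM against 98.2 to 164 CPM. In stimulated EP2KO libraries, replicate 1 had 312 to 392 CPM of neutrophil and 315 to 391 CPM of macrophage and dendritic cell markers, and replicate 3 had 31.2 to 72.0 CPM and 128 to 147 CPM. Cxcl10 was 157 to 203 CPM in the first and 23.0 to 27.7 CPM in the second. In stimulated EP2/EP4KO libraries, replicate 2 had the highest Cxcl10 (46.2 to 56.3 CPM) and the highest neutrophil markers (35.1 to 104 CPM), against 9.51 to 27.4 CPM and 17.8 to 23.4 CPM in the others. None of these marker lists was wholly at 0. In both lists a defining marker was near 0: C1qa, of macrophages, had 3 counts in all libraries together, and Ly6g, of neutrophils, had 13. Counted in all 64 were Lyz2, found in neutrophils and macrophages, and S100a8 of the neutrophil list. So were H2-Ab1 and Itgax of the macrophage and dendritic cell list. Not all replicates followed this order. In stimulated EP2/EP4KO, Cxcl9 was 22.6 to 23.5 CPM in replicate 3 and 3.65 to 10.4 CPM in replicate 1. Their neutrophil markers were alike (17.8 to 23.4 and 18.2 to 19.0 CPM), while macrophage and dendritic cell markers were 156 to 190 and 110 to 122 CPM. Unstimulated WT replicate 2 had 179 to 250 CPM of neutrophil markers and 2.39 to 7.17 CPM of Cxcl9. The part of other cells in the Cxcl9 and Cxcl10 values was not tested.

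**Figure D4:**
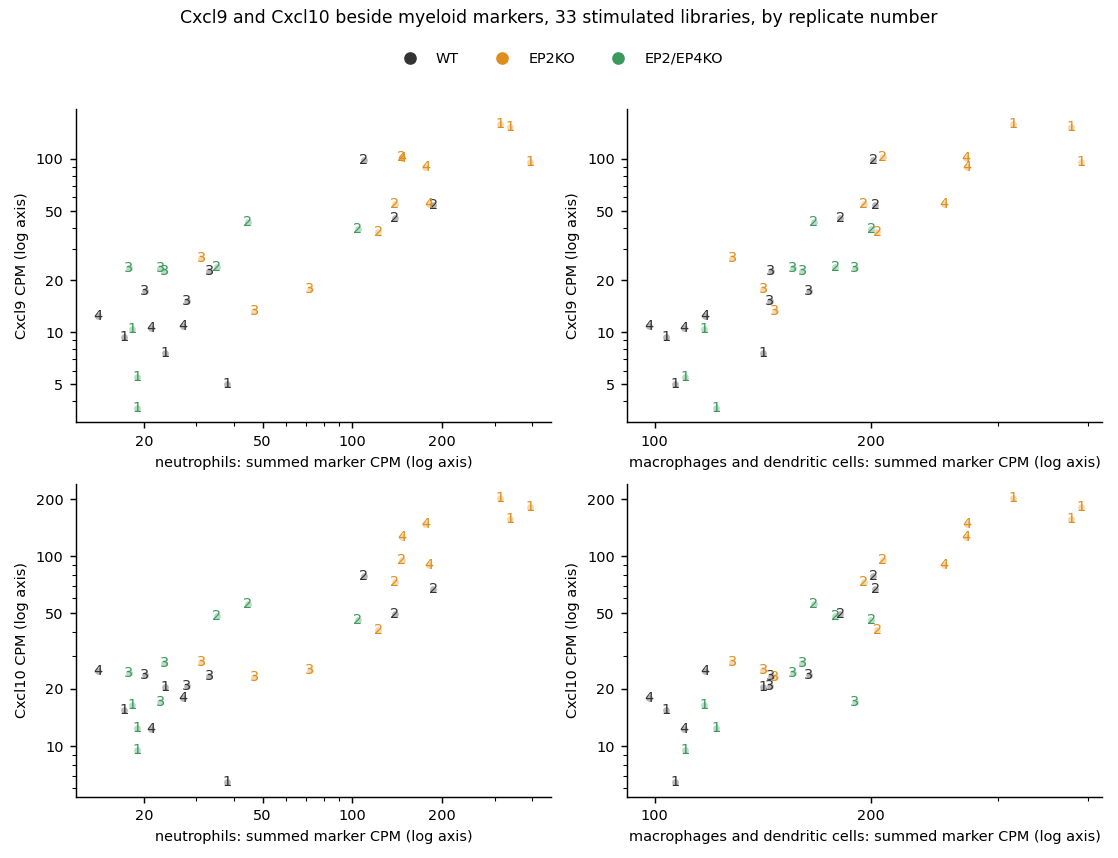
CPM of Cxcl9 (top) and Cxcl10 (bottom) in the 33 stimulated libraries against the summed CPM of neutrophil markers (left) and of macrophage and dendritic cell markers (right), on log axes. Each digit is a library's replicate number, coloured by genotype. Replicate 2 in WT, replicate 1 in EP2KO and replicate 2 in EP2/EP4KO lie toward the upper right for their genotype.

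In replicate 4 of EP2KO, Ccl9 and another marker list were both high at rest. In unstimulated EP2KO cells replicate 4 had 120.2 CPM untreated, 96.5 CPM with PGE2 and 124 CPM with CM, against 57.6 to 80.8 CPM in replicates 1 to 3. The same 3 libraries held 5224 to 6676 CPM of basophil and mast cell markers and 154 to 240 CPM of platelet markers, against 951 to 2224 CPM and 8.33 to 21.1 CPM in replicates 1 to 3. In stimulated EP2KO cells, where basophil and mast cell markers of replicate 4 were again 5166 to 7505 CPM, its Ccl9 (281 to 430 CPM) lay within the range of the other replicates (273 to 651 CPM). The part of these cells in resting Ccl9 was not tested.

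With the replicates highest in these markers left out of every group (replicate 2 of WT, 1 and 4 of EP2KO and 2 of EP2/EP4KO, an alternative chosen after seeing the data), the 5 falls with PGE2 in stimulated WT cells were still called. Stimulation in untreated WT called 5 members in place of 7, without Cxcl9 (1.599, adjusted p = 0.15) and Cxcl10 (1.25, adjusted p = 0.053). In stimulated EP2KO, with 2 libraries left in each group, Ccl1 alone was called with PGE2 and with CM. The values of the others moved little, as for Xcl1 with PGE2 (-0.60, adjusted p = 0.17). All genes called there also fell, from 782 to 395 with PGE2 and from 1117 to 526 with CM.

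Other chemokine ligands were sparse in these cells. Of 30 listed, 7 passed the filter on low counts, and 1 of the 7 rose with stimulation in untreated WT: Cxcl2, a neutrophil attractant (log2 2.88 ± 0.76). This share is below the 42% of all genes called in that comparison. With PGE2 in stimulated WT, 0 of the 7 were called by edgeR or DESeq2, and 1 had an unadjusted p under 0.05, beside 2951 of all genes. Of 23 chemokine receptors listed, 9 were tested, and in stimulated untreated WT cells 4 fell and 1 rose, beside 42% of all genes, with Ccr2, a receptor for monocyte-attracting chemokines (-1.56 ± 0.15), Cxcr3 (-2.29 ± 0.26) and Cxcr6 (-1.12 ± 0.27) among the lower. Cxcr3 encodes the receptor for CXCL9 and CXCL10. With PGE2 in stimulated WT cells 5 of the 9 rose and 1 fell, beside 15.6% of all genes, and among the higher were Ccr2 (1.49 ± 0.15), Ccr7, the lymph node homing receptor (2.87 ± 0.46) and Cxcr4 (1.61 ± 0.27). The median over the 9 was 0.64, against -0.05 over all genes.

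Of 15 other secreted effectors of NK cells listed, 12 were tested, and 7 rose and 2 fell with stimulation in untreated WT, where 42% of all genes were called. Ifng, the interferon-gamma gene, rose from 221, 242, 211 and 196 CPM to 1574, 1174, 2158 and 2645 CPM (3.12 ± 0.20). With PGE2 in stimulated WT cells 9 of the 12 fell and 0 rose, beside 15.6% of all genes, with Ifng at 549, 511, 515 and 524 CPM (-1.85 ± 0.18), Tnf (-2.20 ± 0.22), Csf2 (-2.32 ± 0.28) and Ltb (-1.46 ± 0.17). In stimulated EP2KO 7 of the 12 fell and 1 rose with PGE2 (7.29% of all genes called), and in stimulated EP2/EP4KO (0% of all genes) 0 were called by edgeR or DESeq2 and 0 had an unadjusted p under 0.05. Transcription factors of the NF-kB, NFAT, AP-1 and EGR families gave 18 higher and 1 lower of 24 tested (of 25 listed) with stimulation in untreated WT, beside the same 42%, led by Rel (2.85 ± 0.14) and Egr2 (3.18 ± 0.16). With PGE2 in stimulated WT 15 were lower and 1 higher (15.6% of all genes called), with Egr2 (-1.87 ± 0.15), Nfkbia, the NF-kB inhibitor (-1.48 ± 0.13), Rel (-1.29 ± 0.13) and Egr1 (-1.49 ± 0.18) among the lower. In EP2KO 8 were lower and 1 higher (7.29%), and in EP2/EP4KO (0%) 0 were called by edgeR or DESeq2, with 1 at an unadjusted p under 0.05.

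Cxcl9 and Cxcl10 belong to the genes that interferon-gamma induces, and 20 others of that class were listed and tested. With stimulation in untreated WT, 4 of the 20 rose and 3 fell, beside 42% of all genes called, with Irf8 (1.42 ± 0.16) and Wars (1.11 ± 0.16) higher and the immunoproteasome genes Psmb9 (-1.27 ± 0.17) and Psmb8 (-1.06 ± 0.16) lower. With PGE2 in stimulated WT, 1 rose and 2 fell, beside 15.6% of all genes. Of 20 type I interferon-induced genes, 11 were tested, and 1 rose and 2 fell with stimulation, Ifih1, an RNA sensor, being the higher one (2.09 ± 0.33). Neither class had a larger share of called genes with stimulation than the whole table. Ifih1 was also the 1 of the 11 called with PGE2 in stimulated WT, as lower (-1.43 ± 0.31). Among 11 factors that control cytokine mRNA decay, 7 rose and 1 fell with stimulation (42% of all genes called), led by Zc3h12c (3.61 ± 0.35) and Zfp36l1 (1.77 ± 0.19), and with PGE2 in stimulated WT 4 fell, Zfp36l1 (-0.88 ± 0.18) among them, and 1 rose, Zfp36l2 (0.90 ± 0.21), beside 15.6% of all genes.

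The genes most like each chemokine were taken as those with the highest Pearson correlation of mean log2 CPM over the 18 groups, among 6824 candidates. For Ccl3 and Ccl4 the first was Ifng (r = 0.997 and 0.998) and the second was Nars, an asparaginyl-tRNA synthetase gene (0.993 and 0.997). For Ccl9 it was Ifng (0.994), followed by Kdm6b (0.994) and Gramd1b (0.993). For Xcl1 the first were Tagap (0.996), Crtam (0.995) and Nars (0.995), and for Ccl1 they were Cd83 (0.988), Dusp2 (0.988) and Ubxn2a (0.983). Cxcl9 and Cxcl10 were most like Iigp1, an interferon-induced GTPase gene (0.937 and 0.948), Nampt (0.918 and 0.949) and Tma16 (0.921 and 0.898), and r between Cxcl9 and Cxcl10 themselves was 0.969. Ccl5 was most like Crip1 (0.95), Csrp1 (0.925) and Tmsb10 (0.92). These values describe 18 groups that share cultures, genotypes and a strong stimulation step, and no p is attached to them.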

How the data were processed

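NK cells of 3 genotypes were profiled by bulk 3′ mRNA sequencing in 64 libraries. The authors deposited raw counts per gene as 1 table of 36273 genes; GRCm38 (mm10) and DESeq2 are named in the submitters' processing notes. The aligner, the annotation, the use of strand and the unit counted (molecules or reads) were not given in the sources used here. Library totals were 753973 to 1693750 counts. Libraries were grouped by their labels. edgeR 4.0.16 (R 4.3.3; TMM scaling, filterByExpr with a minimum count of 10, robust quasi-likelihood fit) was fitted to all libraries with 1 mean per group. Benjamini-Hochberg adjustment ran over all 10723 tested genes, with calls at an adjusted p under 0.05. Differences are log2 with the standard error or 95% interval of the fit. The code was tested on simulated counts. Alternatives were DESeq2 1.42.0, other scalings and filters, a non-robust fit, the replicate block, fits on the compared genotypes alone and leaving out libraries. Beside the 8 chemokines, the text names Ifng, Ptger2, Ptger4, the 3 genes most like each chemokine (average log2 CPM of at least 4, predicted genes left out) and up to 4 called genes with the smallest p of each list; 1 such gene is not reported here. The members and the lists were chosen with earlier results of these data known. Marker genes (C1qa, Ly6g, Lyz2, S100a8, H2-Ab1 and Itgax among them) and Xist were read for the checks alone.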

Additional observations from a re-analysis of the deposited data

Results flagged for a closer look

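In 9 of the 88 gene-by-group sets of 4 libraries that were screened, 1 library lay apart from the other 3 by Dixon's test at the 95% level, and chance flags about 1 in 20 such sets. Low libraries were Ccl1 in untreated unstimulated WT (679 CPM) and Ccl3 in untreated unstimulated EP2KO (1088 CPM). High libraries in stimulated WT were Ccl1 with CM (2130 CPM), Ccl4 with CM (6810 CPM), and untreated Cxcl9 (98.5 CPM) and Cxcl10 (79.1 CPM). High libraries in unstimulated EP2KO were Xcl1 with CM (2275 CPM), untreated Ccl9 (120.2 CPM) and Cxcl9 with PGE2 (6.71 CPM).

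Treatment effects differed between stimulated and unstimulated cells by the interaction test of edgeR. In WT the log2 difference of the PGE2 effect was -2.27 for Ccl1, -1.63 for Ccl9 and -1.56 for Ccl3, and in EP2KO it was -1.51 for Ccl1. For CM it was -1.57 for Ccl1, -1.18 for Ccl9 and -1.17 for Ccl3 in WT, and -1.07 for Ccl1 in EP2KO. Some of these calls were lost when a single library was left out, as given above. They were those of Ccl3 and Ccl9 in WT for both treatments and of Ccl1 in EP2KO for CM.

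Treatment effects in stimulated cells also differed between genotypes by the same kind of test. For PGE2, EP2/EP4KO minus WT was 2.33 for Ccl1, 1.76 for Ccl3, 1.62 for Ccl9, 1.31 for Ccl4 and 1.30 for Xcl1, and EP2/EP4KO minus EP2KO was 1.73 for Ccl1. For CM, Ccl1 differed by 1.66 between EP2/EP4KO and WT and by 1.28 between EP2/EP4KO and EP2KO. The last call was lost without any of 7 libraries, as given above. Sex differed with EP2/EP4KO in all of these comparisons, as the Xist and Y-linked counts show, and cannot be told apart from the genotype.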

How the results depend on the processing

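No fold change of a chemokine that was called, in the main analysis or under an alternative, changed sign under any setting run. The falls of Ccl1, Ccl3, Ccl4, Ccl9 and Xcl1 with PGE2 and with CM in stimulated WT were called under every setting run. PGE2 in unstimulated EP2KO called 1 chemokine (Xcl1) in place of 0 under DESeq2, RLE scaling, library totals alone, no filter, a minimum count of 30, a non-robust fit, the compared genotypes alone and the replicate block. CM in unstimulated WT called 1 in place of 0 with library totals alone, no filter and the replicate block. Under the block, all genes called went from 338 to 646 in the first comparison and from 883 to 1755 in the second. The replicate block called 8 in place of 5 for stimulation in EP2/EP4KO with CM and 5 in place of 3 for PGE2 by stimulation in WT. For PGE2 by stimulation in WT, all genes called went from 140 to 367. The block called 2 in place of 1 for the PGE2 effect between EP2/EP4KO and EP2KO (all genes 102 to 259). For the CM effect between EP2/EP4KO and WT it called 3 in place of 1 (all genes 130 to 376). For both genotype comparisons of untreated stimulated cells it called 2 in place of 0 (Cxcl9 and Cxcl10). All genes called there went from 8 to 161 for EP2KO minus WT and from 9 to 135 for EP2/EP4KO minus EP2KO. There the block takes the spread between replicate numbers out of the error. Those calls therefore do not show a genotype difference beyond that spread. The block also called falls of Ccl5 with stimulation in untreated WT (-0.39, adjusted p = 7.3e-04) and EP2KO (-0.38, 0.0013) and in CM-treated WT (-0.33, 0.0099), EP2KO (-0.38, 0.0019) and EP2/EP4KO (-0.29, 0.043) cells, rises of Cxcl9 with stimulation in WT with PGE2 (3.69, 6.1e-04) or CM (1.54, 0.041) and of both Cxcl9 (2.17, 0.0024) and Cxcl10 (1.68, 0.0088) in untreated EP2/EP4KO, a rise of Cxcl10 in WT with PGE2 (2.04, 0.013), and a fall of Cxcl9 with CM in stimulated EP2KO (-0.93, 0.012). No filter gave 2 in place of 1 for the PGE2 effect between EP2/EP4KO and EP2KO, 0 in place of 1 for that of CM, and 3 in place of 1, as did DESeq2, for the CM effect between EP2/EP4KO and WT. CM by stimulation in EP2KO called 0 in place of 1 with library totals alone and no filter. Without the replicates highest in markers of other cells, 1 was called in place of 5 for PGE2 and for CM in stimulated EP2KO, 2 in place of 3 for both treatments by stimulation in WT, and 0 in place of 1 for CM in unstimulated EP2KO, for both treatments by stimulation in EP2KO and for the CM effect between EP2/EP4KO and EP2KO; these fits have fewer libraries. Leaving out 1 library gave 3 to 5 called for PGE2 and for CM in stimulated EP2KO, 1 to 4 for both treatments by stimulation in WT, 1 to 5 for the CM effect between EP2/EP4KO and WT, and 0 to 1 for both treatments in unstimulated EP2KO, CM by stimulation in EP2KO and the CM effect between EP2/EP4KO and EP2KO. Without the replicates highest in markers of other cells, calls over all genes fell as well. In stimulated EP2KO they went from 782 to 395 with PGE2 and from 1117 to 526 with CM. By stimulation in WT they went from 140 to 25 for PGE2 and from 235 to 87 for CM. For CM in unstimulated EP2KO they went from 469 to 142. The cause was not tested. Counts of all genes called moved by over 1.5 times in 96 of 405 fits other than the leave-one-out ones; with PGE2 in stimulated EP2KO, 782 became 1254 under the replicate block and 520 with no filter, and with CM in stimulated EP2/EP4KO, 8 became 70 under the block and 25 by DESeq2. Same-numbered libraries of a genotype shared deviations from their group means (median r 0.34 in WT, 0.27 in EP2KO and 0.36 in EP2/EP4KO). For libraries of other numbers the median r was -0.09, -0.09 and -0.16. By mean r, 51 of the 64 libraries were most like those of their own number. The sharing was not seen in every pair, so the number alone is taken as shared. The main fit leaves this sharing out, and the replicate block includes it.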
